A study of Mus musculus with 4 samples.

Results

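The transcripts described here were the lncRNAs of the series that have a single exon and no class. They were chosen from the lncRNA expression table as the entries with an identifier beginning NONMMUT, an exon count of 1 and an empty class field. In all, 30577 of the 131850 lncRNAs of the table met this rule. No expression value entered the choice, but levels and changes are given only for the 6556 transcripts whose mean across the 4 samples reached 0.1 FPKM. FPKM is a fragment count divided by transcript length (kilobases) and by sequencing depth.

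RNA came from C3H10T1/2, a mouse mesenchymal cell line that can enter the muscle, fat, cartilage and bone lineages. The untreated group held 2 samples, replicates 1 and 2, with no culture time listed. The 5-AZA group held 2 samples, replicates 101 and 102, listed with 20 μM of 5-AZA for 72 hours followed by 21 days in fresh medium. 5-AZA (5-azacytidine) is a cytidine analogue that is built into nucleic acids and lowers DNA methylation. The study calls the replicates biological repeats, and the sources used here do not say whether they were separate cultures. A p-value measures only the spread between these samples. RNA was measured in bulk, in which a change in the share of a cell type and a change per cell cannot be told apart.

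Long noncoding RNAs are transcripts without a long open reading frame, and NONMMUT identifiers come from NONCODE, a catalogue that collects such transcripts from databases and publications. Most catalogues sort them by their place relative to protein-coding genes, as intergenic, antisense or sense transcripts. A transcript with 1 exon has no splice junction that could fix its strand or its ends, and catalogues of such transcripts hold unspliced RNAs, fragments of longer RNAs, precursors of small RNAs and true single-exon genes. Some miRNAs are cut as hairpins from transcripts of this kind.

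The sequences of the transcripts themselves were not printed, because no genome sequence was at hand. RefSeq sequences of GRCm38 are shown for short elements inside or upstream of some transcripts. The first set are mature miRNAs, printed 5′ to 3′ with the seed (bases 2 to 8) in capitals, whose hairpins lie inside a transcript on the same strand. They belong to the 3 host transcripts with the highest levels and to those whose groups did not overlap, as far as RefSeq lists a mature sequence.
mmu-let-7i-5p: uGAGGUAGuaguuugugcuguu
mmu-miR-23a-3p: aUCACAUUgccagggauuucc
mmu-miR-27a-3p: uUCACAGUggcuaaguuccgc
mmu-miR-24-3p: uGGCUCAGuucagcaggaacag
mmu-miR-30c-5p: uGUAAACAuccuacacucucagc
mmu-miR-423-5p: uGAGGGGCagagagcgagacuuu
mmu-miR-181b-5p: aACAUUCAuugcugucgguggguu
mmu-miR-8109: gCGCCGCGugccggccgcggg

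The second set are promoter windows, from 250 bases before to 50 bases after an annotated start, with each CG dinucleotide in capitals, since CG is the site that DNA methylation marks in mammals. The Gm6958 window lies on the plus strand at chr16:55961065-55961364, and the 5′ end of NONMMUT026962.2 lies 6 bases upstream of the start of Gm6958. The Gm30826 window lies on the minus strand at chr19:53492600-53492899, and the start of Gm30826 lies 2938 bases upstream of the 5′ end of NONMMUT106341.1. Both windows were chosen after values were seen. They belong to places where transcripts were listed near 0 in the untreated samples and above 1 FPKM after 5-AZA, and other such places are not shown.
Gm6958: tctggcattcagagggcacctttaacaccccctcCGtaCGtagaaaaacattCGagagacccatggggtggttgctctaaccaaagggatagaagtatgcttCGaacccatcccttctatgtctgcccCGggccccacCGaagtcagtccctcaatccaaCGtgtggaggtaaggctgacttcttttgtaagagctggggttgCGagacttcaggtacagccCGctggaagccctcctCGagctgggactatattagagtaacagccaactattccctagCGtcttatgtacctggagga
Gm30826: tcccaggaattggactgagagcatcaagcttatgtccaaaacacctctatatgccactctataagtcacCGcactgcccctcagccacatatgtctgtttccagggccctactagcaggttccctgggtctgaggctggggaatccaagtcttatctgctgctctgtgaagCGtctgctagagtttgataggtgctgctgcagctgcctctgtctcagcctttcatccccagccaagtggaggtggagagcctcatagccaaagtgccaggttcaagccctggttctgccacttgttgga
The Gm6958 window held 11 CG, and 60.4% of the 32851 promoter windows of the RefSeq table held as many or fewer. The Gm30826 window held 2 CG, and 23.3% of windows held as many or fewer. The median window held 7. The letters CAGCTG, which read the same on both strands, are in the Gm30826 window and not in that of Gm6958, and 16.3% of all windows hold them. The window of Gm52290, whose span the called NONMMUT100751.1 overlaps, was also examined and is not printed. It held 4 CG, 38.0% of windows held as many or fewer, and it lacks CAGCTG.

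Coordinates are those of the deposited table, with 1 added to each start. The submitters' processing notes name the build mm9, but the start and end of 1984 lncRNAs of the table were exactly those of a RefSeq gene of GRCm38 when starts were counted from 0, and coordinates were therefore read as GRCm38. Of these exact matches 38 were single-exon transcripts without a class.

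The cells were checked against markers, with transcripts summed for each gene. Of 10 mesenchymal markers, 8 were at 1 FPKM or more in both untreated samples and 9 in both 5-AZA samples. Nt5e was below 1 FPKM in all of them. The summed level of the 10 was lower after 5-AZA, with 3260 and 3320 FPKM in the untreated and 2110 and 2360 FPKM in the 5-AZA samples. Most of that sum was Vim, with 2270 and 2410 FPKM in the untreated and 1180 and 1380 FPKM in the 5-AZA samples. Vim, Col1a1 and Col1a2 were lower in both 5-AZA samples, and each of the other mesenchymal markers was higher in both. The summed level of 10 skeletal muscle markers was 1.22 to 1.61 FPKM in the untreated samples and 768 to 1180 FPKM in the 5-AZA samples, and that of 4 fat cell markers was 14.2 to 31.4 and 1060 to 1440 FPKM. Of 8 heart muscle markers 1 reached 1 FPKM in both samples of either group, and Nppa, Nppb, Myl7, Tbx5 and Hand2 were listed at 0 throughout. The leukocyte markers Cd3e and Adgre1 were at 0 in all samples, and Ptprc was at 0.0631 FPKM in 5-AZA replicate 101 only. Of 3 endothelial markers 1 reached 1 FPKM in both 5-AZA samples and none in the untreated ones. The summed level of 3 epithelial markers was 0.877 to 0.926 FPKM in untreated and 15.6 to 20.1 FPKM in 5-AZA samples, most of it Krt8 in the latter. Among them Cdh1 was lower after 5-AZA, with 0.5 and 0.497 FPKM in untreated and 0.157 and 0.367 FPKM in 5-AZA samples. The marker levels moved with treatment, as did the changes below, and their part in those changes was not tested.

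Most of the single-exon transcripts without a class were at very low levels. Of the 30577, 13754 (45.0%) were listed at 0 in all 4 samples, 6556 (21.4%) reached the mean of 0.1 FPKM and 1675 reached 1 FPKM. Over all lncRNAs 51.0% were at 0 throughout and 18.3% reached 0.1 FPKM. The multi-exon NONMMUT transcripts without a class reached it less often, in 7.3% of 33549, and the single-exon intergenic NONMMUT transcripts more often, in 35.5% of 25486. At the limit itself, NONMMUT148770.1 (0.235, 0.112, 0.0168 and 0.0369 FPKM in untreated 1, untreated 2, 5-AZA 101 and 5-AZA 102) and NONMMUT105690.1 (0.156, 0.0607, 0.122 and 0.0614) were just inside. NONMMUT132915.1 (0.0247, below 0.001, 0.0491 and 0.326) and NONMMUT121171.1 (0.118, 0.041, 0.0661 and 0.175) were just outside. All values below are given in this order of samples.

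The number of transcripts at 1 FPKM or more was 1749 and 1703 in the untreated samples and 1599 and 1545 in the 5-AZA samples. Their summed level went the other way, with 13250 and 12864 FPKM in the untreated and 20323 and 21791 FPKM in the 5-AZA samples, which was 8.6% to 12% of the summed level of all lncRNAs in a sample. The difference in the sums rested on few transcripts. The 11 called transcripts that were already at 5 FPKM or more in both untreated samples summed to 205 and 232 FPKM there and to 7755 and 9521 FPKM after 5-AZA, and without them the sums were 13045 and 12632 against 12568 and 12270 FPKM.

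Length went with both detection and replicate error. The transcripts ran from 201 to 74456 bases with a median of 1062 bases, and those over the limit had a median of 1224 bases. Of the 2849 transcripts under 500 bases 15.1% reached 0.1 FPKM, and of the 4622 from 2000 to under 4000 bases 30.2% did. The median gap between the 2 replicates of a group fell from 1.42 on the log2 scale under 500 bases to 0.34 at 4000 bases or more. Replicates of short transcripts thus lay further apart than those of long ones. The longest over the limit, NONMMUT139615.1 with 22667 bases, had 0.558, 0.692, 0.427 and 0.365 FPKM, and the shortest, NONMMUT147315.1 with 201 bases at a tRNA gene (n-TYgta1), had 2.27, 1.62, 2.48 and 4.48 FPKM. Neither was called.

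**Figure D1:**
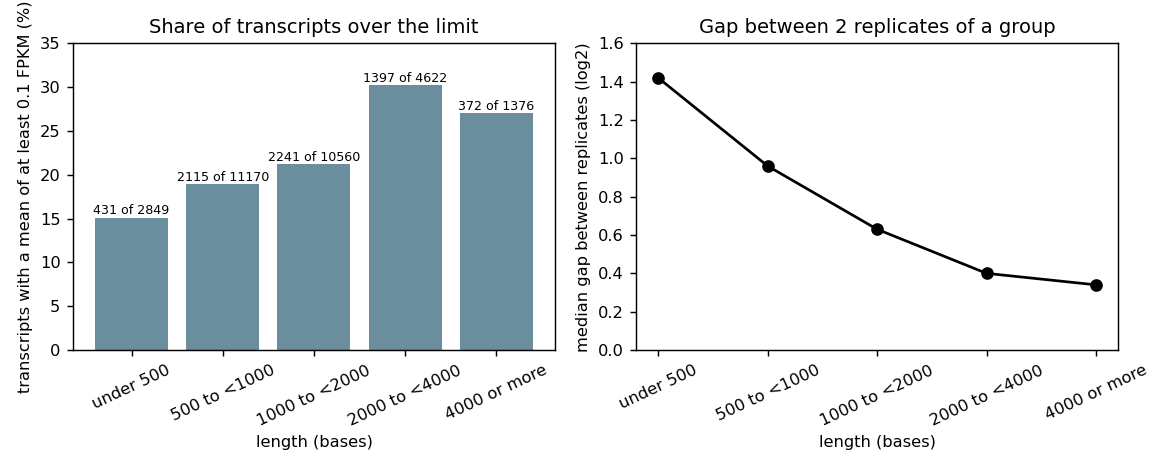
Left, the share of single-exon lncRNAs without a class whose mean was at least 0.1 FPKM, by length in bases, with the counts above each bar. Right, the median gap between the 2 replicates of a group on the log2(FPKM + 0.1) scale, averaged over both groups, for transcripts over the limit. The share was 15.1% in the shortest class and 30.2% from 2000 to under 4000 bases, and the gap fell from 1.42 to 0.34.

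Replicates agreed only moderately. Across the 6556 transcripts, which are not independent replicates, Pearson's r of the log2 levels was 0.754 between the untreated samples, 0.769 between the 5-AZA samples and 0.683 to 0.702 between samples of different groups. Among the transcripts with a mean of at least 1 FPKM whose replicates lay furthest apart were 2 that overlapped protein-coding genes. NONMMUT011302.2, within the clathrin heavy chain gene Cltc, had 8.0, 5.0, 0.00402 and 89.5 FPKM. NONMMUT031390.2, within the small GTPase gene Rab18, had 1.19, 0.0159, 0.0467 and 30.3 FPKM. In the first a single 5-AZA library was near 0, and in the second 1 library of each group was. By contrast, the genes themselves had mRNA levels of 140 to 178 FPKM for Cltc and 19.6 to 21.3 FPKM for Rab18.

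The 8 transcripts with the highest means fell into 2 kinds. NONMMUT047825.2 and NONMMUT047822.2, neighbours on the plus strand of chromosome 4 and far from any protein-coding gene, had 769, 822, 715 and 554 FPKM and 337, 372, 297 and 269 FPKM. NONMMUT154251.1, in the span of Erdr1, had 512, 383, 308 and 283 FPKM, and NONMMUT142601.1, in the span of Gm2423, had 377, 358, 207 and 224 FPKM. In all 4 both 5-AZA values were below both untreated values, and none was called (log2 fold changes of -0.34 to -0.33 for the first pair, -0.59 ± 0.21 (SE) for NONMMUT154251.1 and -0.77 ± 0.16 for NONMMUT142601.1, adjusted p of 0.195 to 0.55). Under quantile normalization NONMMUT047822.2, NONMMUT154251.1 and NONMMUT142601.1 were called lower, at log2 fold changes of -1.71, -1.79 and -1.97. With samples centred on their medians they were at -0.16, -0.42 and -0.61, and none of them was called. The other 4, NONMMUT133369.1, NONMMUT120155.1, NONMMUT113665.1 and NONMMUT134066.1, were among the transcripts that rose.

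The question of the main comparison was which transcripts differed between 5-AZA and untreated cells. A transcript was called at an adjusted p below 0.05 and over 2-fold, with limma fitted to log2(FPKM + 0.1) over all 24075 lncRNAs that reached 0.1 FPKM on average. Of the 6556 single-exon transcripts without a class 47 were called higher (0.717%) and 9 lower (0.137%), where 0.984% and 0.154% of all lncRNAs tested were called. The multi-exon transcripts without a class had 40 higher (1.64%) and 5 lower (0.205%) of 2441, and the single-exon intergenic transcripts 54 higher (0.597%) and 8 lower (0.0884%) of 9048. The shares of called transcripts were thus close to those of the whole table in both directions.

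No transcript was called when any one of the 4 samples (untreated replicate 1 or 2, 5-AZA replicate 101 or 102) was left out, which leaves 1 sample in a group, although limma then gave 310 to 389 transcripts an unadjusted p below 0.05 with higher values and 423 to 496 with lower ones. All 56 called transcripts stayed over 2-fold in the same direction in each of these fits. With all samples, an unadjusted p below 0.05 was found for 291 (4.44%) with higher and 482 (7.35%) with lower values, against 5.25% and 7.89% of all lncRNAs. This split depended on the scaling: the median log2 fold change was -0.20 for these transcripts and -0.23 for all lncRNAs, and with samples centred on their medians 375 were higher and 334 lower. In 933 transcripts (14.2%) both 5-AZA values lay above both untreated values and in 1843 (28.1%) below, where 14.6% and 31.7% of all lncRNAs did.

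Calls rose with the mean over the 4 samples. That mean includes the 5-AZA values, so a rise itself moves a transcript to a higher class. No transcript with a mean of 0.1 to 0.3 FPKM was called among 2744, 10 were among the 2137 up to 1 FPKM, 30 among the 1499 up to 10 FPKM, and 16 among the 176 above (9.09%, against 12.86% of all lncRNAs at that level). All 16 at that level were higher in the 5-AZA samples. Some reached it only through the 5-AZA values, such as NONMMUT133370.1, below 0.001 FPKM in both untreated samples and at a 5-AZA mean of 58.14 FPKM. The transcripts called lower were short, with a median of 594 bases and a longest of 1313 bases. Those called higher had a median of 884 bases and ran from 392 to 5126 bases. Both medians were below the 1224 bases of all tested transcripts.

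**Figure D2:**
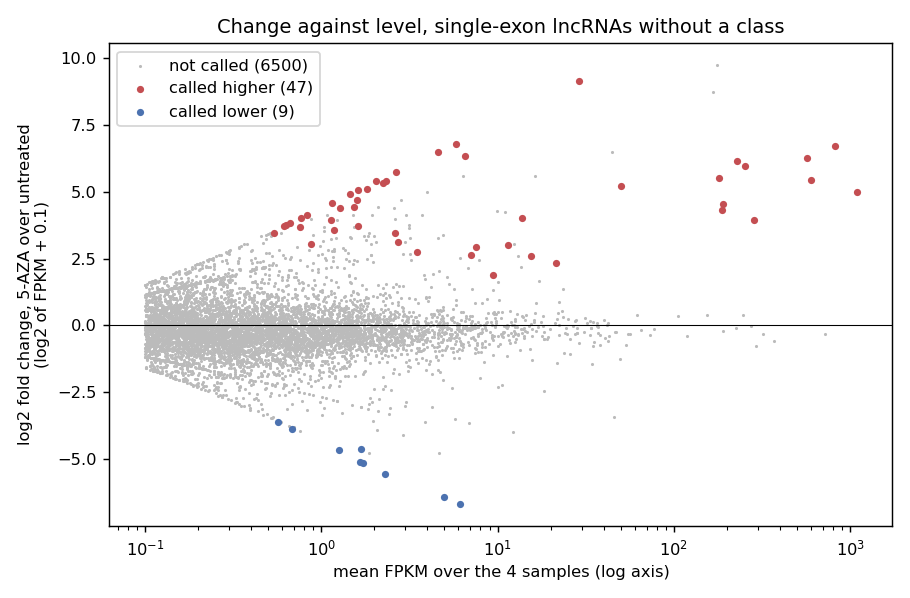
Each point is 1 of the 6556 transcripts over the limit, with its mean FPKM over the 4 samples on a log axis and its log2 fold change, 5-AZA over untreated, on the log2(FPKM + 0.1) scale. The 47 called higher are red, the 9 called lower are blue and the rest are grey. Called transcripts lie at the outer edge of the cloud, and those above 10 FPKM on average were all higher. The mean includes the 5-AZA values, so level and change are not independent.

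A first set of rises concerned transcripts that untreated cells already held. In 11 of the 47 both untreated values were at 5 FPKM or more (6.05 to 66.7 FPKM), and the 5-AZA values were 31.6 to 2406 FPKM, with ratios of group means from 5.21 to 104. These 11 transcripts lay on 8 chromosomes, were 392 to 1361 bases long, and 9 of them overlapped no protein-coding gene.

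NONMMUT120155.1, at chr5:30226473-30227106 on the minus strand, had 13.2, 18, 1511 and 1732 FPKM (log2 fold change 6.70 ± 0.22, adjusted p = 0.00462). It lay 5475 bases from Selenoi, a gene of phospholipid synthesis, whose mRNA was at 7.65, 7.62, 7.06 and 7.66 FPKM and was not called. The rise was therefore seen beside a gene whose levels overlapped between the groups.

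NONMMUT133369.1 at chr9:98767930-98768321, plus strand, in the span of the lncRNA gene E330023G01Rik, had 63.8, 66.7, 1824 and 2406 FPKM (5.00 ± 0.20, adjusted p = 0.00561). Its neighbour NONMMUT133370.1 at chr9:98771105-98771625, 2783 bases further on the same strand, in the spans of E330023G01Rik and Gm33563, was below 0.001 FPKM in both untreated samples and had 46.8 and 69.5 FPKM after 5-AZA (adjusted p = 0.00462). Both pieces of this place rose, one from a measurable level and one from 0 or close to it.

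On chromosome 9, too, NONMMUT134066.1 at chr9:32839527-32839922 had 10.7, 19.5, 1110 and 1146 FPKM (6.28 ± 0.33, adjusted p = 0.00853). NONMMUT134070.1 at chr9:33160062-33160690 had 6.05, 6.41, 403 and 502 FPKM (6.15 ± 0.19, adjusted p = 0.00462). The nearest protein-coding gene of both was Ets1, a transcription factor gene 81707 and 402242 bases away, which had 9.57, 8.72, 10.2 and 10.1 FPKM and was not called. Both transcripts had groups far apart, with replicates of 5-AZA closer to each other than to any untreated sample.

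NONMMUT113665.1 at chr3:96492662-96493416 had 22.8, 30.6, 997 and 1361 FPKM (5.46 ± 0.26, adjusted p = 0.00676). Its nearest protein-coding gene, Hjv, the gene of hemojuvelin, a regulator of iron that skeletal muscle and liver make, lay 31747 bases away and was at 0 in both untreated samples and at 3.62 and 5.39 FPKM after 5-AZA (adjusted p = 5.523e-06). Here transcript and gene were both higher. Of the 13199 genes tested for mRNA, 13.1% were called higher and 1.32% lower.

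NONMMUT120565.1 at chr5:64564177-64564819 had 8.77, 7.05, 457 and 538 FPKM (5.96 ± 0.20, adjusted p = 0.00462). NONMMUT107458.1 at chr2:82408443-82409097 had 8.07, 7.0, 312 and 395 FPKM (5.53 ± 0.20, adjusted p = 0.00482). Both lay over 100 kb from a protein-coding gene, 212691 bases from Tbc1d1 and 148564 bases from Zfp804a. The remaining 4 of the 11 were chosen after their values were seen. They were NONMMUT152176.1 (16, 14.8, 317 and 414 FPKM), NONMMUT005754.2 (34.9, 33.5, 462 and 604 FPKM), NONMMUT026478.2 in the span of the peptide transporter gene Slc15a2 (14.4, 21.6, 333 and 383 FPKM) and NONMMUT139011.1 in the span of Nabp1 (6.67, 7.20, 31.6 and 40.6 FPKM). In each of these the groups were apart, and NONMMUT152176.1 overlapped 3 other listed transcripts on its strand, with which it may share reads.

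A second set went from very low to measurable levels. In 22 of the 47 both untreated values were below 0.1 FPKM, and the 5-AZA values were 0.998 to 69.5 FPKM. The other 14 of the 47 were in neither set. Over all transcripts tested 22 were below 0.1 FPKM in both untreated samples and at 1 FPKM or more in both 5-AZA samples, of which 21 were called, and 0.515% of all lncRNAs tested showed that pattern. A listed 0 can be a failed estimate, and no fold is given against it.

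NONMMUT026962.2, at chr16:55961309-55965054 on the plus strand and 3746 bases long, was below 0.002 FPKM in both untreated samples and had 6.16 and 4.43 FPKM after 5-AZA (adjusted p = 0.00967). Gm6958, at whose start it begins and whose promoter is printed above, had 0.00184 FPKM or less in the untreated samples and 4.35 and 3.06 FPKM after 5-AZA in the mRNA table. Transcript and gene lie on the same strand and may share reads. Of 130 tested transcripts with a RefSeq start within 200 bases on their strand, 69 at protein-coding genes and 61 at lncRNA genes, this 1 was called, where 0.984% of all lncRNAs tested were called higher and 0.154% lower.

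NONMMUT044449.2 at chr3:101040236-101041256, in the span and on the strand of Ptgfrn, a membrane protein gene of the immunoglobulin superfamily, had 0.0064, 0.00115, 14.6 and 8.63 FPKM (adjusted p = 0.00861). The mRNA of Ptgfrn had 22.7, 24.8, 19.2 and 25 FPKM, so the transcript differed between groups where the mRNA values overlapped. NONMMUT100936.1 at chr17:32719033-32719970 was below 0.001 FPKM in the untreated samples and had 6.84 and 11.6 FPKM after 5-AZA (adjusted p = 0.00974). NONMMUT108806.1 at chr2:21836229-21836985, near Gpr158, had 0.155, 0, 10.8 and 15.3 FPKM (adjusted p = 0.0272). Its untreated replicate 1 was above 0.1 FPKM, so it was in neither set, and it was not called with a pseudocount of 0.01 FPKM. The nearest genes of these last ones, Cyp4f15 and Gpr158, were at 0 or close to it in all samples.

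Other called transcripts are given with their nearest protein-coding genes, and were chosen after their values were seen. NONMMUT116672.1, 9787 bases from Cavin4, a muscle gene of caveolae, was below 0.001 FPKM in the untreated samples and had 1.07 and 1.58 FPKM after 5-AZA, while Cavin4 had 1.88, 2.08, 10.9 and 13.1 FPKM (adjusted p = 1.226e-05). NONMMUT037015.2, 92 bases from Olfml2a, had 0.0225, 0, 4.18 and 5.10 FPKM beside 0.0148, 0.13, 2.53 and 3.04 FPKM of that gene. NONMMUT134309.1, 18298 bases from Nnmt, the gene of nicotinamide N-methyltransferase, had 3.59, 5.14, 25.3 and 28.0 FPKM beside 2.06, 2.2, 15.4 and 16.9 FPKM. In these the transcript and the gene were both higher after 5-AZA. That was not so for others. NONMMUT099610.1, 15270 bases from Bdh1, a gene of ketone body metabolism, had 0, 0, 0.999 and 1.52 FPKM beside 0.0716, 0.0783, 0.0746 and 0.115 FPKM of Bdh1. NONMMUT108726.1, 280684 bases from the muscle gene Nebl, had 0.0141, below 0.001, 1.15 and 1.00 FPKM beside 1.70, 1.65, 0.905 and 1.02 FPKM of Nebl. Bdh1 was thus close to 0 throughout, and Nebl was lower in both 5-AZA samples. The nearest gene was also lower for NONMMUT152176.1, whose nearest gene Tenm3, 315244 bases away, had 0.903, 0.709, 0.197 and 0.353 FPKM.

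**Figure D3:**
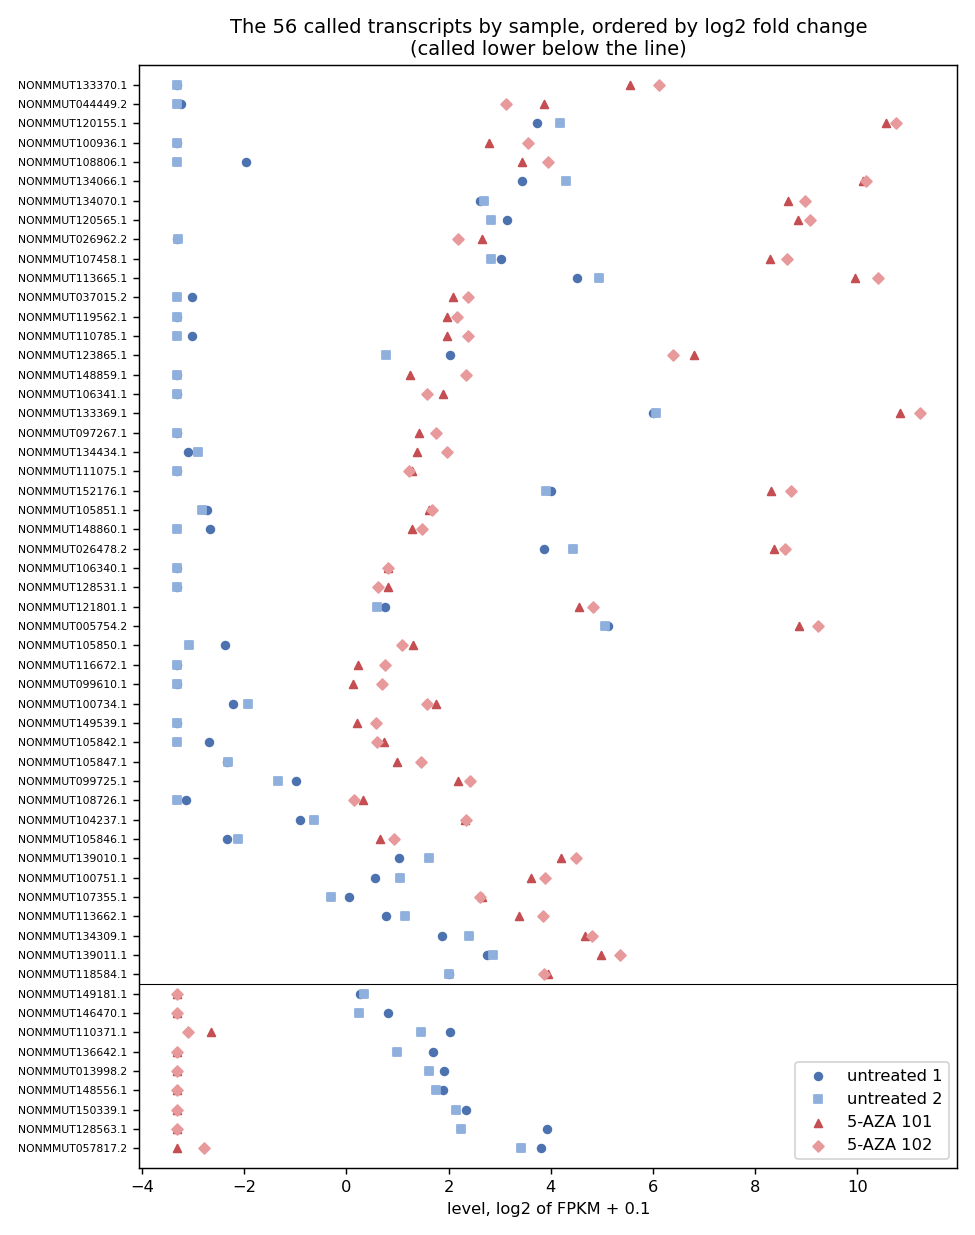
The level of each of the 56 called transcripts in each of the 4 samples, as log2 of FPKM + 0.1, ordered by log2 fold change, with the 9 called lower below the line. Blue symbols are untreated and red symbols 5-AZA samples. A value of 0 FPKM lies at the left edge, and 11 of the 47 called higher start at 5 FPKM or more in both untreated samples.

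All 9 transcripts called lower ended near 0, and 7 of them were below 0.001 FPKM in both 5-AZA samples. Their calls depended on the pseudocount: 5 were called with 0.01 FPKM and 4 with 1 FPKM. NONMMUT150339.1, NONMMUT148556.1 and NONMMUT013998.2 were called with either. NONMMUT057817.2, at chr6:87133854-87135075 in the span of Antxr1, the gene of an anthrax toxin receptor, had 13.8, 10.6, below 0.001 and 0.0446 FPKM (adjusted p = 0.00778). The mRNA of Antxr1 had 25.3, 23.8, 22.8 and 26.1 FPKM, and its groups overlapped. NONMMUT013998.2, at chr12:38869260-38869616 in the span and on the strand of the ETS factor gene Etv1, had 3.66, 2.97, 0 and 0 FPKM (adjusted p = 0.0114). The Etv1 mRNA went the other way, with 3.31, 2.06, 5.59 and 4.41 FPKM (adjusted p = 0.0286, under 2-fold).

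NONMMUT150339.1, at chr6:31160338-31160660 in the span of Lncpint, an lncRNA gene known as a target of p53, had 4.94, 4.32, 0 and 0 FPKM (adjusted p = 0.00853). NONMMUT148556.1, at chr4:97522307-97523619 in the span of Gm12696, had 3.61, 3.26, below 0.001 and below 0.001 FPKM (adjusted p = 0.0103). The others overlapped no RefSeq gene. NONMMUT128563.1, at chr8:43537293-43537679, had 15.2, 4.62, below 0.001 and below 0.001 FPKM (adjusted p = 0.0379). NONMMUT136642.1, at chrX:5992822-5993520, had 3.14, 1.88, below 0.001 and below 0.001 FPKM (adjusted p = 0.0266). NONMMUT128563.1 thus had untreated replicates over 3-fold apart, and it overlapped 2 other listed transcripts on its strand.

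NONMMUT110371.1, at chr2:177177189-177177802, had 3.97, 2.65, 0.0603 and 0.0169 FPKM (adjusted p = 0.0239). NONMMUT146470.1, at chr2:150904831-150905200 and 52 bases from the hydrolase gene Abhd12, had 1.66, 1.09, 0 and 0 FPKM (adjusted p = 0.0435), and Abhd12 had 19.4, 21.7, 21.5 and 22.9 FPKM. NONMMUT149181.1, at chr5:125524823-125525416, had 1.11, 1.16, 0 and 0 FPKM (adjusted p = 0.041). Among all tested transcripts 11 went from 1 FPKM or more in both untreated samples to below 0.1 FPKM in both 5-AZA samples, which included these 9, and 0.166% of all lncRNAs tested did so.

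Several transcripts with large differences and untreated replicates far apart were not called. The ones given here were chosen after their values were seen. NONMMUT109394.1 had 1.10, 0.0407, 300 and 404 FPKM (log2 fold change 9.73 ± 1.08, adjusted p = 0.0505), and NONMMUT133030.1 had 5.02, 0.00215, 213 and 446 FPKM (8.74 ± 1.96, adjusted p = 0.227). In both, each 5-AZA value was above each untreated value.

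Many of the transcripts were neighbours of each other. With transcripts of the same strand joined when 1000 bases or fewer lay between them, 14566 of the 30577 fell into 4849 runs of 2 or more, the largest with 36. Of the 6556 tested, 2018 had another tested transcript in their run, and of the 56 called 15 did. Neighbours in a run may be pieces of a single RNA. The fit and the counts of called transcripts took each of them separately, so these calls need not be independent.

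Of the runs with the most transcripts over the limit, 1 had 12 of them and 3 had 11. A run of 12 on the minus strand at chr3:24807365-24841527, in the span of Naaladl2, had all 12 over the limit, with means of 0.342 to 0.931 FPKM and log2 fold changes of -1.34 to 1.11, 6 of them above 0. A run of 12 at chr6:31063876-31078333 had 11 over the limit, with means of 0.516 to 2.29 FPKM and log2 fold changes of -1.32 to 0.76. NONMMUT150303.1 in the latter had 4.70, 0, 0.776 and 0 FPKM. A run of 11 at chr3:24859758-24893761 had all of them over the limit, with means of 0.307 to 16.9 FPKM and log2 fold changes of -0.63 to 0.58, and the highest of them, NONMMUT112967.1, had 19.6, 15.2, 16.5 and 16.3 FPKM. No transcript of these runs was called.

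The remaining run held the piece of Lncpint that was called lower. It spanned chr6:31154889-31166826 on the minus strand, and 11 of its 13 transcripts were over the limit. Apart from NONMMUT150339.1, its tested transcripts had log2 fold changes of -2.57 to 1.12 and none was called. NONMMUT150340.1, the next along with 1425 bases, had 1.31, 1.07, 0.491 and 0.703 FPKM, and NONMMUT150338.1, on the other side with 721 bases, had 0.691, 0.567, 0.459 and 0.912 FPKM. These longer neighbours were measurable in the 5-AZA samples where NONMMUT150339.1 was at 0. Other short pieces of the run were also listed at 0, in libraries of both groups. NONMMUT150341.1 with 313 bases had 3.43, 0, 0 and 0 FPKM, NONMMUT150337.1 had 0.33, 0, 1.92 and 0 FPKM, and NONMMUT150345.1 had 1.99, 0, 1.37 and 0 FPKM.

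A stretch with several called neighbours lay on chromosome 19. That chromosome held 7 of the 47 higher transcripts, among 266 tested there, where 0.984% of all lncRNAs tested were called higher. This stretch and the pairs after it were chosen after their values were seen. From chr19:8475637 to chr19:8512841 on the minus strand, over 37205 bases, 8 transcripts were tested and 5 were called higher. NONMMUT105851.1, 5124 bases long, had 0.0513, 0.0411, 2.95 and 3.09 FPKM (log2 fold change 4.42 ± 0.29, adjusted p = 0.0135). NONMMUT105850.1 had 0.0936, 0.0185, 2.38 and 2.04 FPKM (adjusted p = 0.0384). NONMMUT105847.1 had 0.0976, 0.1, 1.88 and 2.65 FPKM (adjusted p = 0.032). These came close to each other in level before and after 5-AZA.

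NONMMUT105846.1 had 0.097, 0.129, 1.48 and 1.81 FPKM (adjusted p = 0.0443). NONMMUT105842.1 had 0.0556, below 0.001, 1.56 and 1.42 FPKM (adjusted p = 0.0474). The intervening NONMMUT105848.1 (18.9, 27.5, 26.2 and 28.2 FPKM) and NONMMUT105849.1 (5.99, 4.49, 6.56 and 8.49 FPKM) were not called. Their log2 fold changes were 0.255 and 0.517, and in NONMMUT105849.1 both 5-AZA values lay above both untreated ones. NONMMUT105842.1, NONMMUT105846.1 and NONMMUT105847.1 overlapped 1, 2 and 2 other listed transcripts on their strand, with which they may share reads. The nearest protein-coding genes, Slc22a8 and Slc22a30, organic anion transporter genes over 70 kb away, were at 0 or close to it in all 4 samples.

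**Figure D4:**
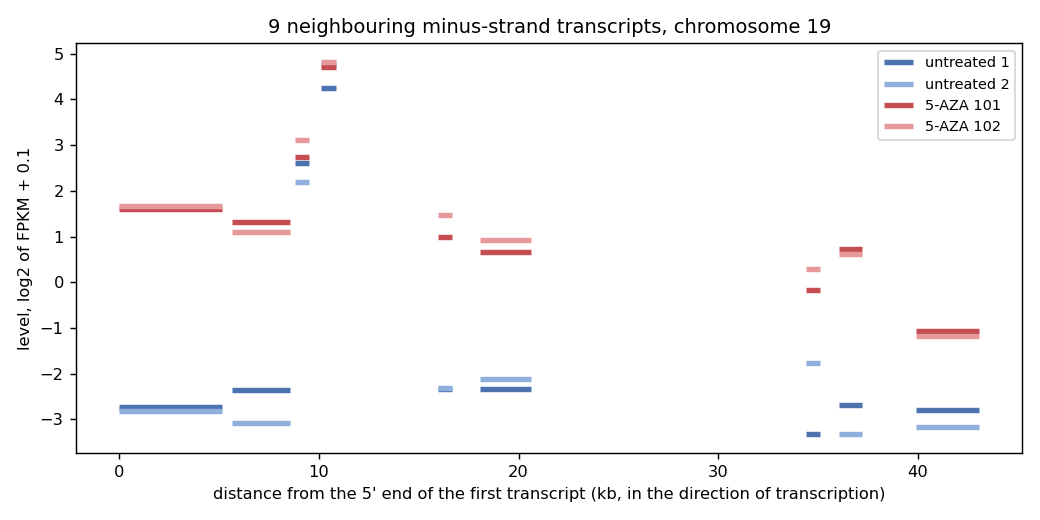
Each bar is 1 of 9 tested minus-strand transcripts on chromosome 19, drawn at its length and at its distance in kb from the 5′ end of the first, with its level in each sample as log2 of FPKM + 0.1. In 7 of them both 5-AZA bars lie well above both untreated bars, and the 2 short transcripts near 10 kb are high in all 4 samples.

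The other pair on chromosome 19 lay in and beside the span of Gm30826. NONMMUT106340.1, at chr19:53484734-53488358, had 0, 0, 1.66 and 1.67 FPKM (adjusted p = 0.0234), and NONMMUT106341.1, at chr19:53488490-53489711 in the span of Gm30826, had 0, 0, 3.62 and 2.88 FPKM (adjusted p = 0.0118). Dusp5, a phosphatase gene about 40 kb away, had 2.26, 1.93, 1.96 and 1.37 FPKM and was not called. Each of the pair overlapped 1 other listed transcript on its strand.

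Within genes, neighbours were also found together. In the span of Nabp1, a gene of single-stranded DNA binding, NONMMUT139010.1 had 1.95, 2.95, 18.3 and 22.5 FPKM and NONMMUT139011.1 was called as well, while Nabp1 itself had 17.1, 17.3, 28.3 and 32.8 FPKM. Beside Gramd1c, NONMMUT099725.1 had 0.408, 0.296, 4.45 and 5.26 FPKM and its neighbour NONMMUT099724.1, with 0.316, 0.141, 2.59 and 4.42 FPKM, had the same log2 fold change of 3.46 but an adjusted p of 0.078. Gramd1c mRNA had 1.87, 1.58, 4.52 and 4.41 FPKM. At both places every 5-AZA value of gene and transcripts was above every untreated value, and reads of a transcript and of the gene on its strand may be shared.

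The place relative to RefSeq genes showed where levels were higher. Of the 30577, 23625 (77.3%) overlapped no protein-coding gene, 4233 lay in the span of one on the same strand, 1166 on the opposite strand, and 1553 in the span of a gene whose strand was not given in the tables used. The limit of 0.1 FPKM was reached by 18.3% of the first, 32.9% of the second and 24.7% of the third and 35.8% of the last. Those called were 41 higher and 7 lower of 4318 tested without a protein-coding gene, 6 and 1 of 1394 on the same strand, 0 and 1 of 556 where the strand was not given, and 0 and 0 of 288 on the opposite strand, beside 0.984% and 0.154% of all lncRNAs. Spans include introns, and exons were not used. In addition, 10853 transcripts, 2223 of those tested and 16 of those called overlapped another transcript of the table on their strand, and the division of reads among them rested on the authors' estimate.

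Finally, the transcripts that hold miRNA hairpins were measured. RefSeq listed 1005 hairpins, and 27 of them lay inside a single-exon transcript without a class on the same strand, in 23 transcripts, of which 11 were over the limit with 13 hairpins. None of the 11 was called, with 4 whose 5-AZA values were both below the untreated ones, 2 both above and 5 overlapping, where 31.7% of all lncRNAs tested were apart and lower and 14.6% apart and higher. These are levels of the long host transcript, and mature miRNAs were not measured.

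NONMMUT140296.1, 3264 bases at chr10:122982543-122985806 on the minus strand, holds let-7i, a member of the let-7 family that restrains growth genes, at chr10:122985640-122985724. It had 10.1, 10.03, 7.19 and 5.53 FPKM (log2 fold change -0.67 ± 0.22, adjusted p = 0.346). NONMMUT152263.1 at chr8:84208505-84209911 holds the cluster of miR-23a, miR-27a and miR-24-2 and had 3.40, 3.08, 2.38 and 2.89 FPKM (-0.29 ± 0.23, adjusted p = 0.616). Both were lower in each 5-AZA sample than in either untreated one. By limma the unadjusted p was 0.0348 for NONMMUT140296.1 and 0.27 for NONMMUT152263.1, and neither was called.

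NONMMUT010806.2, which holds miR-423 and lies in the span of Nsrp1, had 1.55, 1.02, 0.538 and 0.708 FPKM (-0.92 ± 0.34, adjusted p = 0.382). NONMMUT002935.2, which holds miR-181b-1, had 0.459, 0.735, 1.10 and 0.797 FPKM (0.60 ± 0.36, adjusted p = 0.557). The hosts of miR-8109, NONMMUT152274.1 (0.0849, 0.0814, 0.258 and 0.102 FPKM), and of Mir6417, NONMMUT120502.1 (0.266, 0.239, 0.136 and 0.196 FPKM), were near the limit. The host of miR-30c-2, NONMMUT138548.1, had 3.41, 2.54, 3.32 and 2.06 FPKM, and its groups overlapped. The hosts of miR-34a, a target of p53, and of miR-148a, miR-345 and miR-674 overlapped between groups too. Of the 12 host transcripts under the limit 3 were listed at 0 in all samples. No 2 of the mature miRNAs that RefSeq lists for hairpins in the 11 hosts share a seed.

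**Figure D5:**
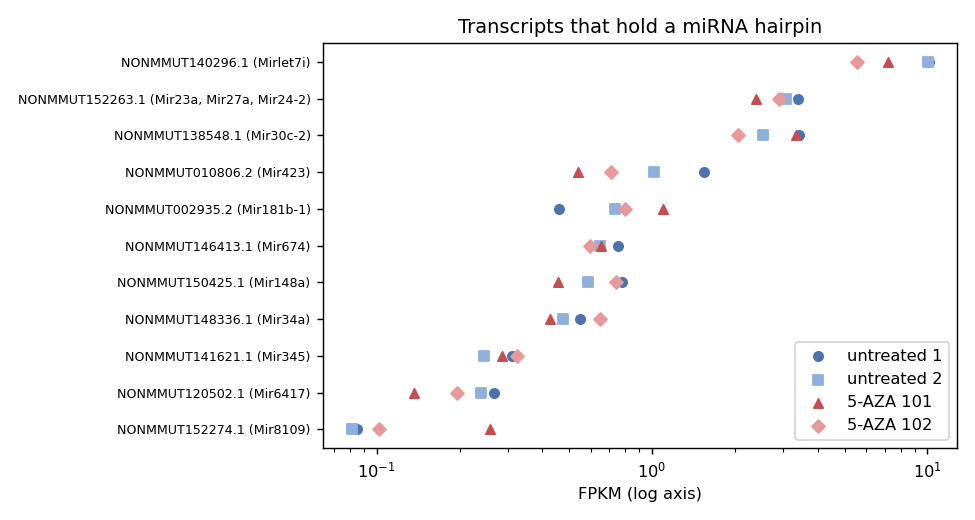
The FPKM of the 11 transcripts over the limit that hold a miRNA hairpin on their strand, by sample, on a log axis, with the hairpin genes in brackets. The host of let-7i is the highest, at 5.53 to 10.1 FPKM, and the symbols of both groups overlap in 5 of the 11.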

How the data were processed

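The authors deposited FPKM values per lncRNA and per mRNA transcript, with each lncRNA's length, exon count, class and coordinates. Libraries were stranded, from RNA depleted of ribosomal RNA. The submitters' processing notes name Trimmomatic, HISAT2, Bowtie2 2.2.9 and eXpress 1.5.1, without their roles, and the build mm9. Whether quantification used the strand is not given in the sources used here. FPKM keeps no depth, so no counting interval was possible, and the number of samples limits precision.

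The deposited FPKM were fitted with limma 3.58.1 (lmFit, eBayes with trend) in R 4.3.3 on log2(FPKM + 0.1), over all 24075 lncRNAs with a mean of at least 0.1 FPKM, with Benjamini-Hochberg adjustment over all of them. Fold changes are on this scale and understate those of low transcripts. Files were read with the R package data.table (version 1.17.8), mRNA transcripts were summed per gene and fitted likewise, and the fit was tested on simulated data. All changes planted there were large rises from measurable levels, so falls and rises from very low levels were not covered. With 2 samples against 2, no exact permutation test can reach p below 0.05. Gene spans, miRNAs and promoters came from RefSeq tables of GRCm38.

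Named transcripts are the 8 highest means, the 10 higher and 10 lower called ones with the largest change (all 9 lower), the 3 widest replicate gaps (1 of them is not reported here), the longest and shortest, those at the limit, and the 3 fullest runs, to which a further one tied with them was added. Others were chosen after their values were seen. No lncRNA that the study tested by qPCR was among the transcripts. The transcripts, lists and rules were chosen with earlier results of these data known. Other pseudocounts, limits, scalings and eBayes without trend were tried, as was leaving out each sample. The circRNA table was not used here.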

Additional observations from a re-analysis of the deposited data

How the results depend on the processing

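The counts of called transcripts depended on the fit. With a pseudocount of 0.01 FPKM 36 were called higher and 5 lower, and with 1 FPKM 43 and 4. Without a limit on low values limma called 0 in either direction, though an unadjusted p below 0.05 was found for 487 with higher and 763 with lower values. eBayes without trend called 26 higher and 7 lower. Other limits, scalings and no fold limit gave 38 to 55 higher and 8 to 13 lower. At the limit of 1 FPKM 30 of the 38 higher and 3 of the 8 lower were among those called in the report. With each sample left out 0 to 0 were called higher and 0 to 0 lower, as the report gives with the unadjusted counts. At a limit of 1 FPKM 1675 transcripts passed, and 8515 at 0.05 FPKM. The median log2 fold change was between -0.24 and 0.

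For the named transcripts, outside the fits with a sample left out, 109 values kept direction and call, 10 lost the call and 3 gained it. Reversals were seen only among uncalled ones. NONMMUT011302.2 was at 0.38 with a pseudocount of 1 FPKM and at -5.95 to 3.80 with a sample left out. NONMMUT105690.1 was at 0.063 with median centring and at -0.44 to 0.24 with a sample left out, and NONMMUT031390.2 was at -1.40 to 6.30 with a sample left out. The cause was not tested. No paired analysis was possible because the groups share no replicate numbers.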

Other observations

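Transcripts at genes of other small RNAs were also measured, and those named here were chosen after their values were seen. Of the tested transcripts 8 overlapped a snoRNA gene, 9 an snRNA gene and 24 a tRNA gene. Their median means were 6.29, 7.68 and 0.394 FPKM against 0.391 FPKM for all. None was called, where 0.984% of all lncRNAs tested were called higher and 0.154% lower, so few calls could occur among so few transcripts. NONMMUT049855.2, at Snora73b in the host gene Snhg3, had 226, 201.2, 245 and 312 FPKM, and NONMMUT139409.1, at Rnu3a, the gene of U3 RNA, which acts in the processing of ribosomal RNA, had 43.3, 30.5, 37.9 and 34.6 FPKM. NONMMUT143138.1, at the tRNA gene n-TYgta10, had 32.1, 71.5, 29.9 and 54.8 FPKM, with replicates further apart than groups. NONMMUT142621.1, at the tRNA gene n-TSgct8, had 2.81, 2.12, 11.8 and 10.4 FPKM (log2 fold change 2.14 ± 0.24, adjusted p = 0.051 by limma), with both 5-AZA values above both untreated ones.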
